A study of Mus musculus with 9 samples.

Results

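The genes described here are the macrophage colony stimulating factor gene Csf1 and the 5 receptor genes Csf1r, Csf2ra, Csf2rb, Csf2rb2 and Csf3r, taken by name from the deposited table of 23420 genes. All 6 were found there and all 6 had reads. The test covered 9564 genes that were above a low-value filter, among them 5 of the 6. They were measured in RAW264, a mouse macrophage-like tumour line that RANKL can turn into bone-resorbing osteoclasts. The groups were KO #1 (Zscan10 mutated by CRISPR/Cas9, labelled exon 2), KO #2 (the same gene mutated, labelled exon 5) and Control (RAW264 with no mutation), each with 3 libraries, and no culture received RANKL. The mutant lines came from electroporation with vectors that carry Cas9, a guide RNA and ZsGreen1, followed by single-cell sorting, so each mutant group stands for 1 line sorted in that way. What the Control cells received is not given in the sources used here. The raw-read names number the clones the other way round, so the exon hit in each clone cannot be told apart from the labels. Since each mutant group is 1 sorted line, the mutation and other features of that line cannot be told apart either.

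Colony stimulating factors are cytokines that keep myeloid cells alive and make them divide and mature. M-CSF, encoded by Csf1, binds a receptor tyrosine kinase encoded by Csf1r, on which most macrophages and osteoclast precursors depend. GM-CSF binds an alpha chain encoded by Csf2ra, which signals through a beta chain encoded by Csf2rb and shared with the receptors for IL-3 and IL-5. Mice carry a second beta chain gene, Csf2rb2, whose product serves IL-3. G-CSF binds a receptor encoded by Csf3r that is best known from neutrophils and their precursors.

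Zscan10 had 0 reads in all 9 libraries, Control included, so its level says nothing about the labels. The libraries held between 1821703 and 2458539 reads, and a limit of 3 reads in 1 library corresponded to 2.62 to 3.54 normalised reads. Libraries of 1 group differed from each other little more than by counting error, with a chi-square per degree of freedom of 1.05 to 1.29. Whether they stem from separate cultures is not stated in the labels, so the p-values rest on the spread of these libraries alone, which may be technical. In bulk RNA, fewer cells of a type and less RNA per cell cannot be told apart. The 9 macrophage markers other than Csf1r summed to 35031 to 36257 normalised reads in KO #1, 31382 to 32680 in KO #2 and 22173 to 23234 in Control, most of it from the lysozyme gene Lyz2. Lyz2 averaged 30181 in KO #1, 27720 in KO #2 and 17632 in Control, so the sums mainly follow that gene. Itgam and Ptprc averaged less in both clones than in Control, and Sfpi1 and Mrc1 slightly more. Emr1, Cd68, Cd14 and Fcgr1 averaged more in KO #1 and less in KO #2. The label macrophage-like held for 8 of the 9 markers in Control, which had reads, and Mrc1, a mannose receptor gene, was at 0 there.

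The clearest difference in the family was in Csf3r, which fell in both clones. Csf3r, the G-CSF receptor gene (chr4:126024659-126044975, mm10, plus strand, 17 exons), had 10.3, 8.98 and 14.2 normalised reads in the 3 KO #1 libraries and 4.72, 11.8 and 9.44 in the KO #2 libraries, against 49.7, 66.8 and 40.9 in the Control libraries. No library of either clone came near the lowest Control library, while the libraries of the clones overlapped each other. The level averaged 11.2 ± 2.73 in KO #1, 8.65 ± 3.60 in KO #2 and 52.5 ± 13.1 in Control (SD, n = 3 each), from 33, 25 and 164 reads in all. By group means it was 4.70-fold lower in KO #1 than in Control and 6.07-fold lower in KO #2 than in Control. The log2 change, computed after adding 1 to each value and therefore too small for genes with few reads, was −2.13 ± 0.29 (SE, 95% interval −2.70 to −1.56, limma adjusted p = 1.92e-08) in KO #1. In KO #2 it was −2.52 ± 0.29 (95% interval −3.09 to −1.95, limma adjusted p = 1.36e-10). The direct comparison of KO #1 over KO #2 gave 0.39 (95% interval −0.18 to 0.96, limma adjusted p = 0.353), so a difference between the clones in this gene was not detectable at this depth.

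Both calls held in all 21 alternative settings, with log2 changes of −2.30 to −1.70 in KO #1 and −2.76 to −1.80 in KO #2. Some settings, such as other filters or leaving out a library of the other clone, cannot move the estimate itself, only its p-value. In the authors' deposited table that sets both clones against control, Csf3r stood at rank 37 of 23420 by p-value, with a q-value of 6.01e-17. The authors' deposited tables of each clone gave it a q-value of 0.000479 in KO #1 and 0.000441 in KO #2. In their FPKM values Csf3r averaged 1.13 ± 0.170 in KO #1 against 5.97 ± 1.05 in Control, and 1.01 ± 0.319 in KO #2 against 5.999 ± 1.06 in Control (SD, n = 3 each), each pair scaled within its own table.

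**Figure D1:**
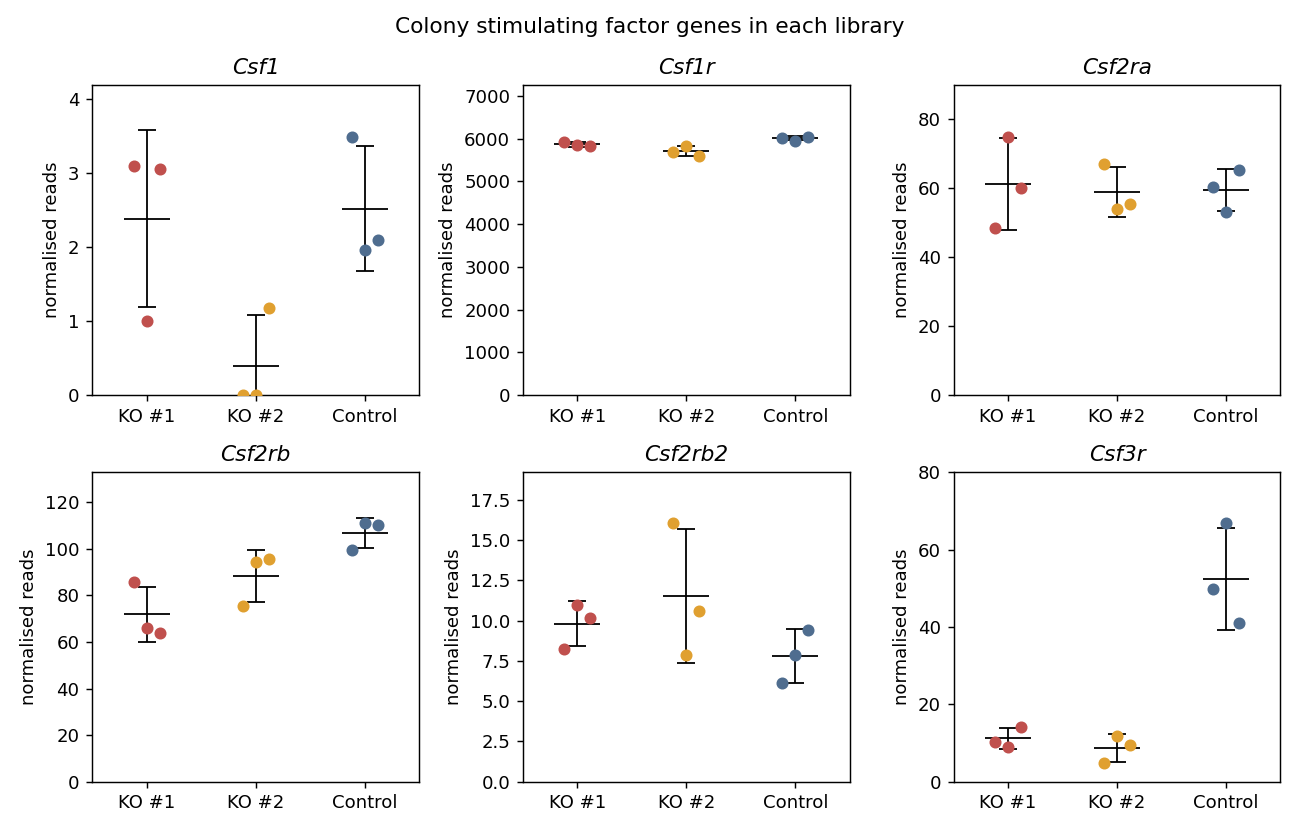
Normalised reads (vertical axis, linear from 0, own scale in each panel) of the 6 genes in KO #1, KO #2 and Control; each point is 1 library, and the bars give the mean and SD of 3 libraries. Csf3r lies between 4.72 and 14.2 in the clones and between 40.9 and 66.8 in Control, and Csf2rb is below Control in every KO #1 library.

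Csf3r is a gene of neutrophils and their precursors as well, so other genes of that lineage were read beside it. Of 10 neutrophil markers other than Csf3r, 9 were listed. The granule genes Mpo, Elane, Ltf, Ngp and Camp had 0 reads in every library, and so had S100a9. Prtn3 had 1 read in KO #1 and 0 in KO #2 and Control. The summed level of the 9 was 3.05 to 4.99 normalised reads in KO #1, 3.77 to 4.72 in KO #2 and 3.15 to 3.93 in Control. That is less than the level of Csf3r alone in any library of KO #1 or Control. Cebpe, a granulocyte transcription factor gene, had 4, 6 and 11 reads in KO #1, KO #2 and Control, and S100a8, a calcium-binding protein gene, had 7, 6 and 0 reads in KO #1, KO #2 and Control.

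The nearest tested genes on either side of Csf3r on chromosome 4 did not pass the test in either clone against Control. Mrps15, a mitochondrial ribosome gene 1953 bases beyond Csf3r, had a log2 change of −0.24 in KO #1 (limma adjusted p = 0.101) and of −0.27 in KO #2 (limma adjusted p = 0.0550). Zc3h12a, an RNase gene and the nearest tested gene on the other side at 896778 bases, had 0.13 in KO #1 (limma adjusted p = 0.747) and −0.46 in KO #2 (limma adjusted p = 0.121). The median log2 change of the 591 tested genes of chromosome 4 was −0.011 in KO #1 and −0.0098 in KO #2.

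The 3 tested genes whose profile over the 9 libraries came closest to that of Csf3r were Tagap, Slpi and Rcsd1. Closeness is the root-mean-square difference of the centred log2 profiles, which was 0.40, 0.42 and 0.45 for these genes, against 1.16 for the distance of Csf3r from its own mean. Slpi, which encodes a secreted inhibitor of leukocyte proteases, averaged 12.5 normalised reads in KO #1, 8.48 in KO #2 and 65.0 in Control. Tagap, a GTPase-activating protein gene, averaged 22.3 in KO #1, 17.7 in KO #2 and 61.9 in Control. Rcsd1, which encodes a partner of actin capping protein, averaged 42.3 in KO #1, 32.5 in KO #2 and 150 in Control. They were picked for this likeness and share their libraries and depth with Csf3r, so this is a description with no test.

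The bases before the start of Csf3r and Csf2ra are shown because Csf3r fell in both clones while Csf2ra passed no test, and because the purine-rich core bound by PU.1, the main transcription factor of macrophages, can be looked up in them. The sequences are from RefSeq (GRCm38.p6), 250 bases up to the start, and capitals mark each GAGGAA. Csf3r covers chr4:126024409-126024658, plus strand, and Csf2ra covers chr19:61228419-61228668, minus strand.
Csf3r: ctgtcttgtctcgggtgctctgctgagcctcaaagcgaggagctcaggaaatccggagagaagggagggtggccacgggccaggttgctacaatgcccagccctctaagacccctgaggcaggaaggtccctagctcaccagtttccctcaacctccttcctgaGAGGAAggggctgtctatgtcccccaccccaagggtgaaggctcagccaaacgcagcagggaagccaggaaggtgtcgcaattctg
Csf2ra: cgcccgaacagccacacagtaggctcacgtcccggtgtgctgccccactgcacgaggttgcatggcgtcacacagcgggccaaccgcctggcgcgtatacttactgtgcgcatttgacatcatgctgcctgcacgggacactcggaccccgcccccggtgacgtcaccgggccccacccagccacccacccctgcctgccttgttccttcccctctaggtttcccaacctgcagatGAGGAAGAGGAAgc

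Promoters of 4 of the 6 genes (Csf1, Csf2ra, Csf2rb2 and Csf3r) were matched by symbol, and 4 motifs were searched on both strands in the 250 bases. GAGGAA occurred once in Csf3r, 86 bases before the start, as 2 copies that follow each other in Csf2ra, 14 and 8 bases before the start, and once in Csf2rb2, on the opposite strand 167 bases before the start. It was in 23.1% of all 27025 promoters of this length. The STAT-type motif TTCNNNGAA was found in Csf2rb2, 15 bases before the start, and in 7.18% of all promoters. TGANTCA (AP-1) and TGTGGT (RUNX) matched none of the 4 genes, and matched 6.87% and 14.2% of all promoters. A match of letters is not a binding site, and no binding was measured here.

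Csf2rb, the shared beta chain gene (chr15:78325990-78351001, plus strand, 14 exons), fell in KO #1. It had 85.5, 65.9 and 64.0 normalised reads in KO #1 and 75.5, 94.3 and 95.6 in KO #2, against 99.4, 111 and 110 in Control. Each clone library lay below the lowest Control library, and the clones overlapped. That order is a description with no test, since the share of all tested genes without overlap is not given here. Means were 71.8 ± 11.9 in KO #1, 88.4 ± 11.2 in KO #2 and 107 ± 6.42 in Control (SD, n = 3 each). The log2 change in KO #1 was −0.58 ± 0.13 (SE, 95% interval −0.84 to −0.32, limma adjusted p = 0.000443), 1.49-fold lower than Control by means, and it passed in all 21 alternatives. In KO #2 it was −0.28 (95% interval −0.54 to −0.017), which did not pass (limma adjusted p = 0.125) there or in any of the 21 alternatives. The alternatives include the sum of Csf2rb and Csf2rb2, which is a different quantity. The difference between the clones was −0.30 for KO #1 over KO #2 (95% interval −0.56 to −0.042, limma adjusted p = 0.0795), so KO #1 and KO #2 were not shown to differ. That comparison depended on single libraries: it gave −0.43 without KO #1 replicate 1 (limma adjusted p = 0.0175) and −0.41 without KO #2 replicate 1 (limma adjusted p = 0.0253). In the authors' deposited tables the q-value of Csf2rb was 0.000479 in KO #1 and 0.256 in KO #2. The KO #1 q-value equals that of Csf3r there, as does the authors' p-value, so these values do not rank the genes. In their table that sets both clones against control, Csf2rb stood at rank 840 of 23420, with a q-value of 0.231.

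Csf2rb and Csf2rb2 lie 20387 bases apart on opposite strands of chromosome 15 and are near copies, so the counting could move reads between them. Their coding sequences (GENCODE M21) were 2691 and 2637 bases long, and 2505 of 2631 aligned bases were identical (95.2%), with 1 identical run of 242 bases. Of all stretches of 50 bases in the Csf2rb transcript, 18.9% also stood in the Csf2rb2 transcript, and of those of 75 bases 11.04%. The stretch of 60 coding bases in which they differ most is printed here, since differing bases tell their reads apart. It starts at coding base 304 of Csf2rb and 307 of Csf2rb2, and capitals mark the 13 differing bases.
Csf2rb: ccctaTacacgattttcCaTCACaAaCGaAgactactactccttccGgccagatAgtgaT
Csf2rb2: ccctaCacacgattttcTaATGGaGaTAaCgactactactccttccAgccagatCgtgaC

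Csf2rb2, the IL-3 beta chain gene (chr15:78282510-78305603, minus strand, 14 exons), was low in all groups. It had 8.25, 10.98 and 10.2 normalised reads in KO #1 and 16.04, 7.85 and 10.6 in KO #2, against 6.11, 7.86 and 9.44 in Control. All 3 groups overlapped, and the gene passed the filter through 4 clone libraries that reached 10. Its log2 change was 0.30 in KO #1 (95% interval −0.37 to 0.98, limma adjusted p = 0.605) and 0.47 in KO #2 (95% interval −0.21 to 1.15, limma adjusted p = 0.362). Neither passed, and the intervals hold both no change and a change of more than 0.9 on the log2 scale. The clones compared directly gave −0.17 for KO #1 over KO #2 (95% interval −0.85 to 0.51, limma adjusted p = 0.774).

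The share of Csf2rb2 among the reads of both beta chain genes was 8.79%, 14.3% and 13.7% in KO #1, 17.5%, 7.69% and 10% in KO #2 and 5.79%, 6.61% and 7.89% in Control. Wilson 95% intervals of single libraries, which cover counting error only, ran from 2.83% at the lowest to 26.3% at the highest. The KO #1 libraries were all above Control, and those of KO #2 overlapped Control. An exact two-sided permutation test over libraries gave p = 0.1 for KO #1 against Control, which is the smallest p that 3 against 3 allows, and p = 0.2 for KO #2 against Control. KO #1 against KO #2 gave p = 0.9 in the same exact test, and adjusted over the 3 comparisons the values were 0.3, 0.3 and 0.9. Both genes were also summed into 1 row, which does not depend on how counted reads were split between them. Reads counted for neither gene are missing from that sum. Its log2 change was −0.49 in KO #1 (limma adjusted p = 0.00122), −0.20 in KO #2 (limma adjusted p = 0.263) and −0.29 for KO #1 over KO #2 (limma adjusted p = 0.0603).

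**Figure D2:**
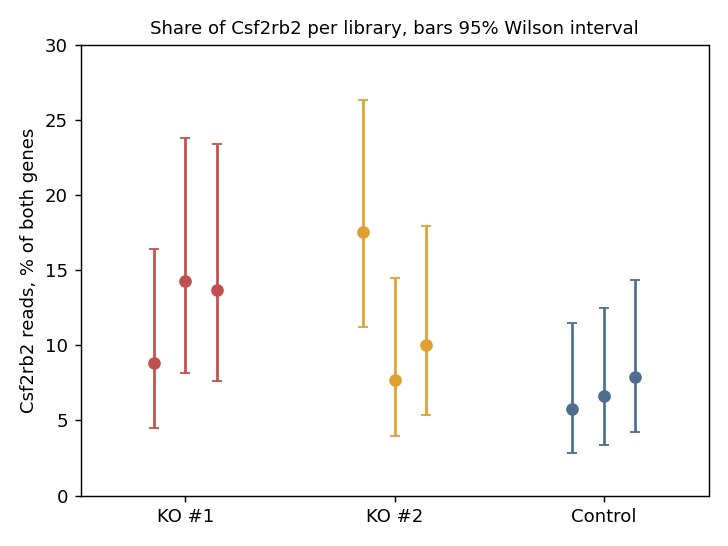
Share of Csf2rb2 in the summed reads of Csf2rb and Csf2rb2 (percent, vertical axis) in the libraries of KO #1, KO #2 and Control; points are libraries and bars are Wilson 95% intervals. The point estimates run from 7.69% to 17.5% in the clones and from 5.79% to 7.89% in Control, and the intervals of all groups overlap.

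Csf2ra, the GM-CSF-binding alpha chain gene (chr19:61224402-61228418, minus strand, 12 exons), did not pass the test in any comparison. It had 48.4, 74.9 and 59.95 normalised reads in KO #1 and 67.0, 54.0 and 55.5 in KO #2, against 60.2, 53.0 and 65.0 in Control. The groups covered nearly the same range. Its log2 change was 0.022 in KO #1 (95% interval −0.30 to 0.34, limma adjusted p = 0.953), −0.016 in KO #2 (95% interval −0.33 to 0.30, limma adjusted p = 0.963) and 0.038 for KO #1 over KO #2 (95% interval −0.28 to 0.36, limma adjusted p = 0.898). The intervals leave room for changes of about 0.3 either way on the log2 scale.

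Csf1r, the M-CSF receptor gene (chr18:61105572-61131139, plus strand, 22 exons), was by far the most abundant of the 6 genes. It had 5933, 5843 and 5833 normalised reads in KO #1 and 5692, 5839 and 5609 in KO #2, against 6027, 5959 and 6052 in Control. All clone libraries were below all Control libraries, by a few percent, and the clones overlapped, which again is a description with no test. With averages of 5870 ± 55.0 in KO #1, 5713 ± 116 in KO #2 and 6013 ± 48.1 in Control (SD, n = 3 each), the log2 change was −0.035 in KO #1 (95% interval −0.084 to 0.015, limma adjusted p = 0.369) and −0.074 in KO #2 (95% interval −0.12 to −0.025, limma adjusted p = 0.0215). The call in KO #2 is for a level 1.05-fold lower than Control, and KO #1 over KO #2 gave 0.039 (95% interval −0.010 to 0.088, limma adjusted p = 0.263). A change as small as this depends on how libraries are scaled and on single libraries. The KO #2 call passed in 14 of 21 alternatives and was lost, for instance, with DESeq2 (−0.069, adjusted p = 0.0657) and without KO #2 replicate 3 (−0.061, limma adjusted p = 0.116). It was also lost without Control replicate 1 (limma adjusted p = 0.0519), without Control replicate 3 (0.0613) and without KO #2 replicate 1 (0.0649). With library totals in place of the authors' size factors the KO #1 change passed too (−0.069, limma adjusted p = 0.0266), a scaling that moved the median of all genes to −0.041. The authors' deposited tables gave q-values of 0.926 in KO #1 and 0.677 in KO #2. The 3′ ends of Csf1r and Hmgxb3, which lie on opposite strands, are 138 bases apart. Hmgxb3 had log2 changes of 0.16 in KO #1 (limma adjusted p = 0.362) and −0.072 in KO #2 (limma adjusted p = 0.722).

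**Figure D3:**
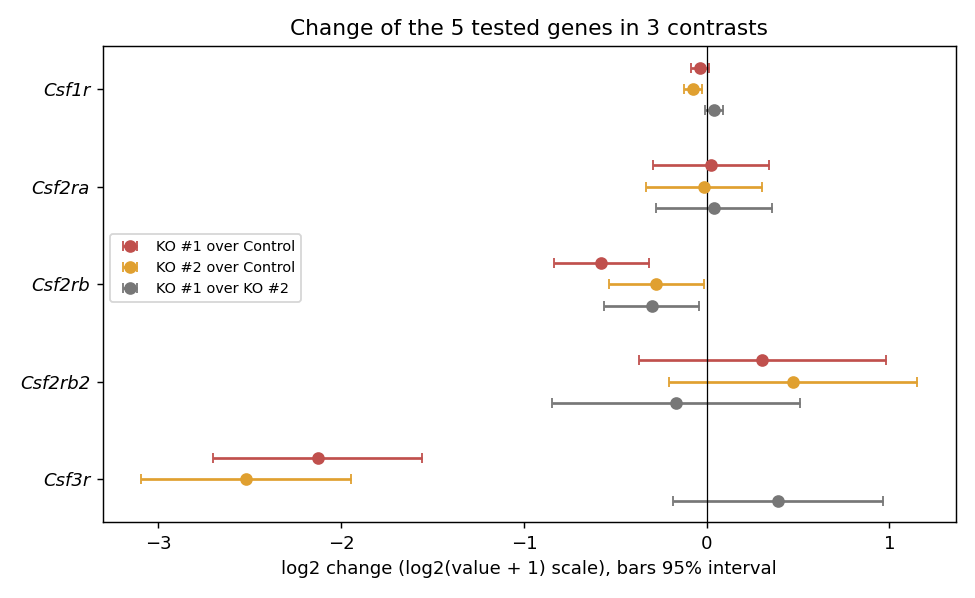
Log2 change on the log2(value + 1) scale (horizontal axis) of the 5 tested genes for KO #1 over Control, KO #2 over Control and KO #1 over KO #2; points are estimates and bars are 95% intervals. Csf3r stands at −2.13 and −2.52, Csf2rb at −0.58 and −0.28, and the interval of Csf1r is the narrowest.

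Csf1, which encodes M-CSF itself (chr3:107741048-107760469, minus strand, 10 exons), was close to the limit of detection and was not tested. The libraries held 3, 1 and 3 reads in KO #1 and 0, 0 and 1 in KO #2, against 4, 2 and 2 in Control. The KO #2 libraries did not overlap Control, and the KO #1 libraries did, a description with no test. Scaled for depth, the ratio to Control was 0.923 in KO #1 (95% counting interval 0.285 to 2.91) and 0.133 in KO #2 (0.0030 to 0.994), and the ratio of KO #1 over KO #2 was 6.93 (0.890 to 312). These intervals compare summed reads of the libraries and cover counting error only. The other ligand genes of the family were absent or nearly so: Csf2, which encodes GM-CSF, had 1 read in Control and 0 in the clones, and Csf3, Il34, Il3 and Il5 had 0 in all 9 libraries. So did Il3ra and Il5ra, the alpha chain genes that pair with the shared beta chain. A count of 0 over all 9 libraries allows a level of up to 0.154 CPM.

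Of the 5 tested genes, 2 were called in KO #1 (Csf2rb and Csf3r), both lower, where 20.8% of all tested genes were called and 10.2% were lower. In KO #2 again 2 were called (Csf1r and Csf3r), both lower, against 22.5% of all genes called and 11.8% lower. A share over 5 genes is too coarse to be set against these backgrounds. The median log2 change of the 5 was −0.035 in KO #1 and −0.074 in KO #2, beside −0.0066 and −0.0087 over all tested genes. Between the clones 0 of the 5 were called by limma, where 26.5% of all genes were. Csf2rb was the 1 gene of the 5 with an unadjusted p under 0.05 by limma there, and edgeR, DESeq2 and limma-voom on the recovered reads also called 0. The comparisons with Control share its 3 libraries, so lower values in both clones are not independent of each other. Groups that did not overlap, as named for Csf1, Csf1r, Csf2rb and Csf3r, are a description with no test. The share of all tested genes without overlap is not given here.

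Levels of different genes were compared per kilobase of exonic length. In Control the order was Csf1r (1552 ± 12.4), Csf2ra (32.1 ± 3.27), Csf2rb (22.4 ± 1.35), Csf3r (13.0 ± 3.25), Csf2rb2 (1.69 ± 0.361) and Csf1 (0.569 ± 0.191), in normalised reads per kilobase (SD, n = 3). No neighbours in that order overlapped in Control. In KO #1 the Csf3r level was 2.76 ± 0.674 and that of Csf2rb2 2.12 ± 0.304, and in KO #2 they were 2.14 ± 0.889 and 2.49 ± 0.901 (SD, n = 3 each). In both clones the libraries of these genes overlapped, so Csf3r no longer stood apart from the least abundant receptor gene. Csf1r stood at rank 101, 102 and 101 per kilobase among the 9564 tested genes in KO #1, KO #2 and Control. Its level per kilobase was 549 times that of Csf3r in KO #1, 690 times in KO #2 and 120 times in Control.

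**Figure D4:**
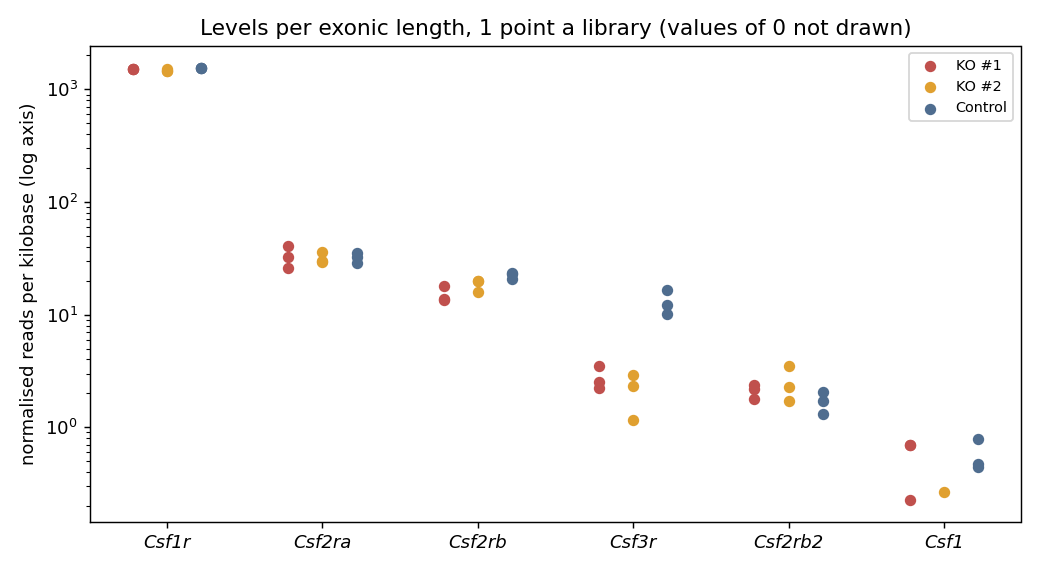
Normalised reads per kilobase of exonic length (vertical axis, log scale) of the 6 genes, ordered by level in Control; each point is 1 library of KO #1, KO #2 or Control, and libraries at 0 are not drawn. Csf1r lies far above the other genes in every library, and the Csf3r points of both clones overlap those of Csf2rb2 and lie below the Csf3r points of Control.

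The genes that act around these receptors were read from lists drawn up for each receptor. Of 31 genes of CSF1R proximal signalling, 29 were tested. In KO #1 4 rose and 8 fell (median −0.053), and in KO #2 4 rose and 7 fell (median −0.034), where 10.5% of all tested genes rose and 10.2% fell in KO #1, and 10.7% rose and 11.8% fell in KO #2. The Src-family kinase gene Fyn fell in both clones, to 69.0 ± 3.92 normalised reads in KO #1 and 47.2 ± 5.34 in KO #2, against 106 ± 4.10 in Control (log2 −0.61 in KO #1, limma adjusted p = 0.000516, and −1.15 in KO #2, limma adjusted p = 7.32e-10). Syk, the kinase gene that works with the adaptor DAP12, fell by 0.45 in KO #1 and by 0.53 in KO #2 on the log2 scale (limma adjusted p = 0.000227 in KO #1 and 1.17e-05 in KO #2). Tyrobp, the gene of DAP12 itself, rose in KO #1 (0.17, limma adjusted p = 0.00113) and did not pass in KO #2 (0.026, limma adjusted p = 0.731). Lyn fell in KO #1 (−0.41, limma adjusted p = 4.24e-07), and Fgr, a further Src-family gene, fell in KO #2 (−0.86, limma adjusted p = 1.49e-07). Mapk3, which encodes the kinase ERK1, rose in both clones (0.38 in KO #1, limma adjusted p = 4.01e-05, and 0.29 in KO #2, limma adjusted p = 0.00185). Pik3r5, a regulatory subunit gene of PI3-kinase gamma, rose to 295 ± 6.90 in KO #1 and 408 ± 25.4 in KO #2, against 245 ± 6.90 in Control (log2 0.27 in KO #1, limma adjusted p = 0.00167, and 0.73 in KO #2, limma adjusted p = 8.91e-14). Between the clones 8 were higher in KO #1 and 7 lower (median 0.028), where 13.5% of all tested genes were higher and 12.9% lower. Among them was the kinase gene Akt1 at 701 ± 45.6 in KO #1 and 1101 ± 23.1 in KO #2 (log2 −0.65, limma adjusted p = 3.83e-18). Akt1 lies on chromosome 12, whose 347 tested genes had a median of −0.57 for KO #1 over KO #2.

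Of 18 genes of GM-CSF and G-CSF receptor signalling, 15 were tested. In KO #1 2 rose and 1 fell (median 0.062), beside 10.5% and 10.2% of all tested genes. In KO #2 0 rose and 5 fell (median −0.14), beside 10.7% and 11.8%. Socs3, a feedback inhibitor of G-CSF receptor signalling, fell in KO #1 to 8.83 ± 3.99, against 18.4 ± 2.29 in Control (log2 −1.05, limma adjusted p = 0.00524), and Id1 rose there (0.75, limma adjusted p = 0.0435). Bcl2l1, which encodes the survival protein BCL-XL, fell in KO #2 to 44.1 ± 9.01, against 98.9 ± 9.43 in Control (log2 −1.16, limma adjusted p = 2.63e-10). Stat5b, the adaptor gene Sh2b3 and the phosphatase gene Ptpn11 fell by smaller amounts in KO #2 (−0.38, −0.28 and −0.23, limma adjusted p = 0.0462, 0.0440 and 0.00145). Jak2, the kinase gene that serves the shared beta chain, did not pass in any comparison. Between the clones 7 genes were higher in KO #1 and 1 lower (median 0.26), beside 13.5% and 12.9% of all tested genes.

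All 14 genes listed as regulators of Csf1r transcription were tested, and 2 rose and 4 fell in KO #1 (median −0.056), beside 10.5% and 10.2% of all tested genes. In KO #2 3 rose and 5 fell (median −0.082), beside 10.7% and 11.8%. PU.1 itself, listed under its older symbol Sfpi1, averaged 368 ± 17.0 in KO #1, 404 ± 8.24 in KO #2 and 368 ± 36.5 in Control and did not pass. Ets2 fell in both, to 240 ± 34.1 in KO #1 and 99.3 ± 2.26 in KO #2, against 368 ± 10.0 in Control (log2 −0.63 in KO #1, limma adjusted p = 2.20e-08, and −1.88 in KO #2, limma adjusted p = 1.11e-26). Runx1 and Egr2 fell in KO #1 (−0.79 and −0.82, limma adjusted p = 2.84e-05 and 0.0240). Mitf rose in both clones (0.60 in KO #1, limma adjusted p = 1.37e-08, and 0.33 in KO #2, limma adjusted p = 0.00102). In KO #2, Irf8 fell to 67.4 ± 9.71, against 139 ± 9.57 in Control (log2 −1.04, limma adjusted p = 1.20e-10), and Klf4 rose (0.79, limma adjusted p = 0.0321). Between the clones 3 were higher in KO #1, namely Ets2, Irf8 and Mitf, and 1 was lower, Runx1 (median 0.027), beside 13.5% and 12.9% of all tested genes. Runx1 and Ets2 lie on chromosome 16 beyond 70 Mb, where the 62 tested genes had a median log2 change of −0.80 in KO #1 and −0.020 in KO #2. The Csf2rb2 and Csf2rb pair and the other family genes lie on chromosomes whose medians stayed between −0.021 and 0.022.

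Of 11 genes listed as responding to M-CSF, 10 were tested. The list holds growth genes but also the cell-cycle inhibitor genes Cdkn1a and Cdkn1b, so its counts are no measure of growth. In KO #1 6 rose and 1 fell (median 0.42), beside 10.5% and 10.2% of all tested genes. In KO #2 3 rose and 5 fell (median −0.30), beside 10.7% and 11.8%. These counts hold Ccnd2 and Myc, which passed the low-value filter only through clone libraries in which they were high. Cdkn1a rose in KO #1 (log2 0.64, limma adjusted p = 4.02e-15) and did not pass in KO #2 (−0.012, limma adjusted p = 0.917). The cyclin gene Ccnd1 rose in KO #1 (0.20, limma adjusted p = 6.54e-05) and fell in KO #2 (−0.22, limma adjusted p = 8.22e-06). Cdkn1b passed in neither clone against Control. Egr1, an immediate early gene, fell in both clones, to 77.5 ± 5.26 in KO #1 and 27.4 ± 4.32 in KO #2, against 137 ± 9.66 in Control (log2 −0.82 in KO #1, limma adjusted p = 9.92e-06, and −2.30 in KO #2, limma adjusted p = 4.47e-20). Fos, also an immediate early gene, rose in both, to 128 ± 15.7 in KO #1 and 227 ± 12.8 in KO #2, against 66.3 ± 7.28 in Control (log2 0.93 in KO #1, limma adjusted p = 2.59e-10, and 1.77 in KO #2, limma adjusted p = 9.36e-21). Fos and Akt1 lie on chromosome 12, whose 347 tested genes had a median log2 change of −0.28 in KO #1 and 0.28 in KO #2. The RANK gene Tnfrsf11a, whose product binds RANKL, rose in KO #1 to 429 ± 13.7, against 254 ± 18.2 in Control (log2 0.76, limma adjusted p = 2.33e-15), and also in KO #2 (log2 0.99, limma adjusted p = 3.22e-20). The cyclin gene Ccnd2 averaged 12.8 ± 2.93 in KO #1, 0.721 ± 0.632 in KO #2 and 4.18 ± 1.16 in Control. Myc, a growth-promoting transcription factor gene, averaged 8.81 ± 1.30 in KO #1, 12.4 ± 4.80 in KO #2 and 4.07 ± 3.88 in Control. Since the filter chose these genes through their high groups, their values are a description. Bcl2, a survival gene, fell in KO #2 (log2 −1.06, limma adjusted p = 0.00128). Between the clones 6 were higher in KO #1 and 2 lower (median 0.54), beside 13.5% and 12.9% of all tested genes. Plau, a protease gene, stood at 446 ± 8.94 in KO #1 and 235 ± 3.65 in KO #2 (log2 0.92, limma adjusted p = 5.01e-19). What part these chromosome regions and the summed macrophage marker level, mostly Lyz2, have in the list counts was not tested.

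**Figure D5:**
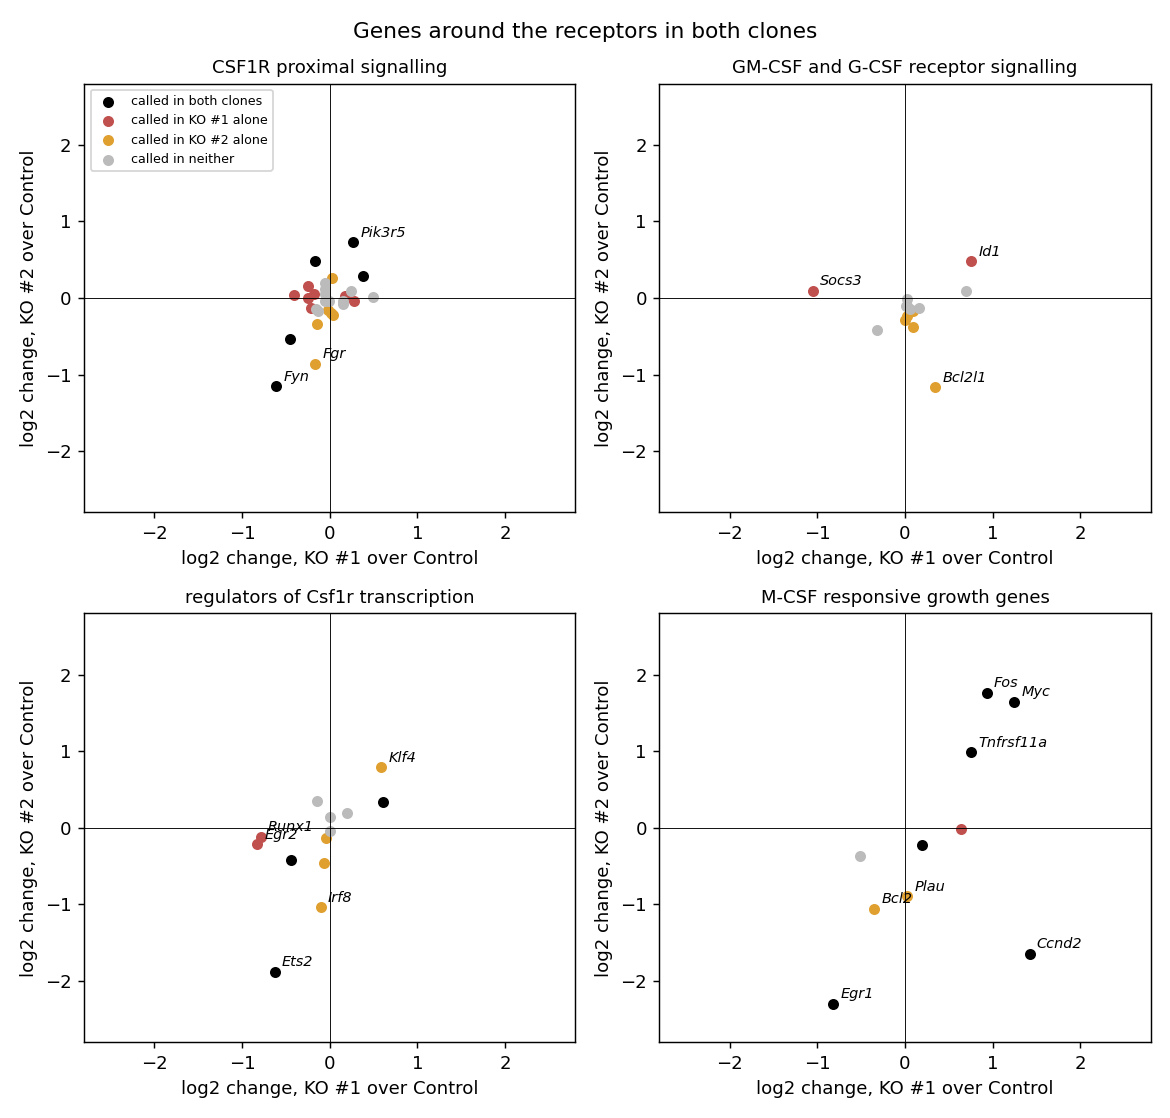
Log2 change in KO #1 over Control (horizontal axis) against that in KO #2 over Control (vertical axis) for tested genes of 4 lists; each point is 1 gene, coloured by the clones in which it was called. Fyn, Ets2 and Egr1 lie low in both clones and Fos high in both, while Irf8 and Bcl2l1 lie low in KO #2.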

How the data were processed

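RNA-seq libraries of RAW264 cells were made with a stranded mRNA kit, per the labels' protocols. Per the submitters' processing notes the tools were TopHat2 2.0.22, Cufflinks 2.1.1, featureCounts 1.4.6 and edgeR 3.20.1, with build mm10, and whether counting used strand is not given in the sources used here. In the main deposited table, which covers 9 libraries, the values are a signal on a normalised scale: the authors scaled each library's gene counts by a factor, TMM by its name. All values were whole multiples of 1 step per library within 1e-06, so reads were recovered. The authors' deposited FPKM tables were scaled within each pair of groups. Both deposited tables also give p-values and q-values of the authors, printed only where named, and the authors' other columns used here are the rank by p-value and the exonic length.

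The test was limma-trend (limma 3.58.1, R 4.3.3) on log2(normalised value + 1) with all 9 libraries in 1 fit, for genes that reached 10 in 3 or more libraries, with Benjamini-Hochberg adjustment over all 9564 tested genes of a contrast and calls at an adjusted p under 0.05. Depth was 1821703 to 2458539 reads per library, and reads carry no molecular identifiers. The Wilson intervals, the counting intervals of Csf1 and the read limits cover counting error only. The limma intervals of log2 changes rest on the spread between libraries. Alternatives used edgeR 4.0.16, DESeq2 1.42.0, limma-voom, other size factors, filters and pseudocounts, the FPKM tables, a replicate block and leaving out each library. The fitting script was tested on simulated data.

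Family genes and lists were chosen with earlier results of these data known, and so was the boundary on chromosome 16. Named genes were the 6 family genes, up to 4 called genes per list and contrast by size of change with a mean of at least 10 in the higher group, the 3 nearest profiles and the adjacent tested genes, of which a few are not reported here. Fli1, Jak2, Sfpi1, Cebpe, S100a8, Tyrobp, Cdkn1a, Cdkn1b and Ccnd1 were chosen after their values were seen. So were the single macrophage markers and the gene names in the closing section outside that rule. The same holds for values in the other clone of Tnfrsf11a, Mapk3, Pik3r5, Ccnd2 and Myc, and for the values of Mitf over Control. The authors' table of KO #1 against KO #2 was not used, because its column names resemble labels of both clones. Guide sequences and raw reads were not analysed here.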

Additional observations from a re-analysis of the deposited data

How the results depend on the processing

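The count of called family genes in KO #1 was 3 in place of 2 with library totals, where Csf1r was added. The count of called family genes in KO #2 was 1 in place of 2 with DESeq2 and with the FPKM tables, where Csf1r was lost. The count between the clones was 1 in place of 0 with no filter on low values, where Csf1 was called from 7 reads in KO #1 against 1 in KO #2. With no filter Csf1 was also called in KO #2 over Control, from 1 read against 8, so that count stayed at 2 although Csf1r was lost. Leaving out each library in turn gave 2 to 2 called genes in KO #1, 1 to 2 in KO #2 and 0 to 1 between the clones. The Csf2rb2 share differed by 4.48 to 7.23 percentage points for KO #1 over Control, by 2.08 to 6.999 for KO #2 over Control and by −1.50 to 3.41 between the clones. The sign of Csf2ra, never called, changed for KO #1 over Control with library totals (−0.012) and with FPKM (−0.0038). Leaving out single libraries moved Csf2ra over −0.13 to 0.18 in KO #1, −0.11 to 0.051 in KO #2 and −0.12 to 0.19 between the clones, and Csf2rb2 over −0.39 to 0.081 between the clones. The Csf1r call in KO #2 was also lost with no filter (adjusted p = 0.0585) and with FPKM (−0.063, adjusted p = 0.205). Over all genes DESeq2 called 1236 in KO #1, 1396 in KO #2 and 1612 between the clones, where limma-trend called 1985, 2152 and 2533. The cause of these differences was not tested, apart from the smaller number of libraries or genes that an alternative holds by its construction. The fit with a replicate block called 2001, 2171 and 2545 genes and left every family call as it was. Replicate numbers gave no sign of pairing, with correlations of residuals of −0.017 to 0.028. The FPKM alternative for KO #1 over KO #2 was not run. Depth limits Csf1 and Csf2rb2, whose groups hold at most 8 and 34 reads.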

Other observations

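Fli1, an ETS family gene on the list of Csf1r regulators, fell in both clones by nearly the same amount (log2 −0.44 in KO #1, limma adjusted p = 0.00861, and −0.42 in KO #2, limma adjusted p = 0.0111). Adam17, whose product cleaves the M-CSF receptor from the cell surface, rose in KO #2 to 806 normalised reads, against 672 in Control (log2 0.26, limma adjusted p = 2.25e-05), and lies on chromosome 12. Osm, a cytokine gene that GM-CSF induces, had 27 reads in KO #1, 6 in KO #2 and 29 in Control and was not tested.

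Markers of other cell types were low. The summed level of 10 osteoblast and stromal markers was 4.06 to 5.15 normalised reads in KO #1, 4.91 to 7.08 in KO #2 and 3.93 to 6.98 in Control, with Col1a1, Col1a2, Col3a1, Sp7 and Ibsp at 0. The 6 dendritic markers summed to 15.5 to 20.3 in KO #1, 17.9 to 21.6 in KO #2 and 11.8 to 26.2 in Control. The 5 mast cell and basophil markers were at 0 in all libraries, the 4 lymphoid markers reached at most 1.18 and the 4 erythroid markers at most 1.05. The 6 osteoclast markers summed to 21.6 to 30.9 in KO #1, 71.7 to 78.3 in KO #2 and 20.98 to 26.2 in Control, so the KO #2 libraries lay above both other groups.

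The profiles nearest to the other family genes were those of App, Senp8 and Rps6ka1 for Csf2rb (root-mean-square log2 difference 0.11 each), Tubb5, Ncf1 and BC018507 for Csf1r (0.025 to 0.028), Reep4, Cars2 and Usb1 for Csf2ra (0.083 to 0.096) and Arhgap23, Ssh3 and Bpnt1 for Csf2rb2 (0.15 to 0.16), over 9 libraries that all of them share. App lies on chromosome 16 beyond 70 Mb.

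Against Control, the adjacent tested genes that passed the test were Ahcyl1 beside Csf1, lower in KO #1 (log2 −0.26, limma adjusted p = 0.000296), Tcof1 beside Csf1r, higher in KO #1 and lower in KO #2 (0.28 and −0.23, limma adjusted p = 0.000171 and 0.00237), and Ncf4 beside Csf2rb2, higher in KO #2 (0.28, limma adjusted p = 0.00616). Gstm1 beside Csf1, Grk5 beside Csf2ra and Mpst beside Csf2rb did not pass in either clone against Control. Between the clones Gstm1 (0.66, limma adjusted p = 0.0152) and Zc3h12a beside Csf3r (0.59, limma adjusted p = 0.0324) were higher in KO #1, and Grk5 and Ahcyl1 were lower (−0.83, limma adjusted p = 0.0433, and −0.32, limma adjusted p = 5.82e-06). Tcof1 was higher in KO #1 than in KO #2 as well (0.51, limma adjusted p = 2.07e-10).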
